A study of Arabidopsis thaliana with 4 samples.

Results

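CP29 is one of the minor, monomeric antenna proteins of photosystem II, and in Arabidopsis thaliana it is encoded by 3 nuclear genes, LHCB4.1 (AT5G01530), LHCB4.2 (AT3G08940) and LHCB4.3 (AT2G40100). The 3 genes were taken from the array annotation, as the probe sets assigned to 1 of these symbols alone, out of 13286 genes that could be named in this way. Each of the 3 had a single probe set. Their RNA was compared between Columbia control plants and jaw-D plants, with 2 arrays each, in total RNA from the aerial parts of plants 2 weeks old. The jaw-D plants are a single activation-tagged line, known for crinkled leaves and for a raised level of the microRNA miR319a, which pairs with transcripts of several TCP transcription factors. The labels give no further allele, agent or treatment for either group and do not say how many plants were pooled. Nor do they say that the arrays of a group came from separate plants, so that every p-value below rests on a spread that may be technical.

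CP29 binds chlorophyll a, chlorophyll b and xanthophylls and sits between the photosystem II core and the trimeric antenna, so that it passes excitation energy inwards and helps to hold the supercomplex together. It also takes part in the heat dissipation of excess light and is a target of thylakoid protein phosphorylation. LHCB4.1 and LHCB4.2 encode closely similar proteins that are abundant in green leaves. LHCB4.3 encodes a protein with a shorter C-terminal part, has also been called LHCB8, and is known for an expression pattern of its own, with induction in strong light.

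LHCB4.3 fell strongly in jaw-D, while LHCB4.1 and LHCB4.2 were slightly lower without passing the test. On the quantile-normalised scale the jaw-D mean was 64.0% below the control mean for LHCB4.3, 12.4% below for LHCB4.2 and 9.96% below for LHCB4.1. The fall of LHCB4.3 exceeded the differences of both other genes when the isoforms were set against each other within each array. In RNA from whole aerial parts, fewer cells that express a gene and less RNA per cell cannot be told apart.

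The deposited values had been brought to a common level, with a mean of 2500 units on every array after trimming 2% at each end, and array medians of 1032 to 1146 units. Over all probe sets, normalised log2 values had a correlation of 0.990 for the pair of control arrays, 0.992 for the pair of jaw-D arrays and 0.980 to 0.984 for arrays of different groups. Of the leaf tissue markers, 1 of 5 could be named: RCA, rubisco activase of the chloroplast stroma, lay between 65800 and 73084 normalised units on the 4 arrays. Of the root markers, 1 of 6 could be named: EXPA7, an expansin of root hairs, lay between 87.0 and 520 units, against at most 353 deposited units for the 27 probe sets of Bacillus subtilis transcripts, which serve as a level of background. None of the 4 flower markers could be named.

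Deposited intensities of LHCB4.3 were 24590 units on control 1, 21389 on control 2, 7769 on jaw-D 1 and 8024 on jaw-D 2. The jaw-D arrays lay far below both control arrays, and the gap between the groups was several times wider than the spread within either. After quantile normalization the means were 21925 ± 1906 units in control and 7892 ± 134 in jaw-D (SD, n = 2 each), so that the control mean was 2.78 times the jaw-D mean. The ratio of a jaw-D array to a control array ran from 0.335 to 0.388 over the 4 possible pairs. The difference on the log2(value + 302.3) scale was -1.44 ± 0.08 (SE), with a 95% interval of -1.64 to -1.24 and a limma adjusted p of 0.00517. Over all 22746 probe sets tested, 2.54% were called lower and 1.64% higher at an adjusted p under 0.05. In this fit 35 probe sets had a more negative difference than LHCB4.3, and by p it was in position 13 of all probe sets. With any 1 of the 4 arrays left out, the difference of LHCB4.3 stayed between -1.52 and -1.35, but its adjusted p was 0.0714 to 0.096 and no longer passed.

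For LHCB4.2 they were 46300 units on control 1, 43927 on control 2, 35645 on jaw-D 1 and 37025 on jaw-D 2. Both jaw-D arrays were below both control arrays. Normalised means were 43497 ± 414 units in control and 38105 ± 979 in jaw-D (SD, n = 2 each). The log2 difference was -0.19 ± 0.06 (SE), with a 95% interval of -0.35 to -0.03, an unadjusted p of 0.0257 and an adjusted p of 0.177, both from limma. The size of this difference depended on the scaling. It was -0.31 as deposited (adjusted p 0.102) and -0.40 when arrays were centred on their medians, where it passed (adjusted p 0.0375).

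LHCB4.1 had deposited intensities of 83574 units on control 1, 76379 on control 2, 69370 on jaw-D 1 and 69448 on jaw-D 2. The jaw-D arrays again lay under both control arrays, but the gap between the groups in deposited units was no wider than the difference between the control arrays. Normalised means were 79086 ± 3562 units in control and 71210 in jaw-D (SD in control, n = 2 each). The jaw-D arrays shared 1 normalised value, because 24 probe sets were brighter than LHCB4.1 on each of them and quantile normalization gives equal ranks equal values. The log2 difference was -0.15 ± 0.07 (SE), with a 95% interval of -0.32 to 0.02 and an adjusted p of 0.317. It was -0.20 as deposited (adjusted p 0.33) and -0.30 centred on the array median (adjusted p 0.122).

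For all 3 CP29 genes both jaw-D arrays were under both control arrays, as were 23.6% of all probe sets tested. LHCB4.1 was among the brightest probe sets of the array, with 8 to 24 brighter ones on each array and a highest deposited value of 93381 to 116442 units. LHCB4.2 had 197 and 203 brighter probe sets in control and 255 and 273 in jaw-D. For LHCB4.3 this number went from 568 and 656 in control to 2050 and 2102 in jaw-D. Brightness differs between probe sets of equal transcript level, so these values do not order the 3 genes by abundance. Whether the signal of the brightest probe sets was compressed was not tested.

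**Figure D1:**
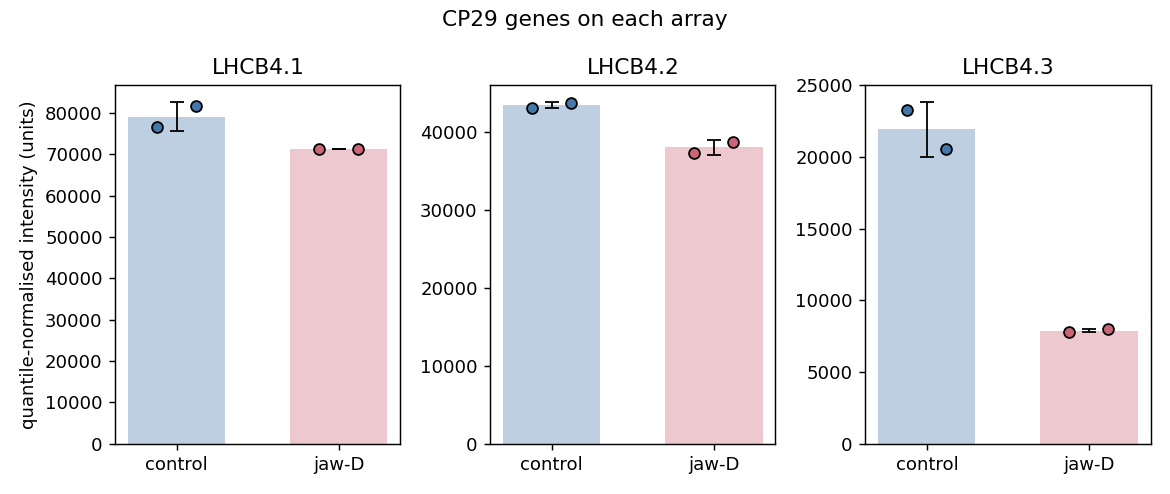
Quantile-normalised intensity of LHCB4.1, LHCB4.2 and LHCB4.3 in control and jaw-D plants. Points are arrays, bars are means of 2 arrays and error bars are SD; each panel has its own axis from 0. LHCB4.3 has a control mean of 21925 and a jaw-D mean of 7892 units, a much larger relative gap than in the other panels.

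**Figure D2:**
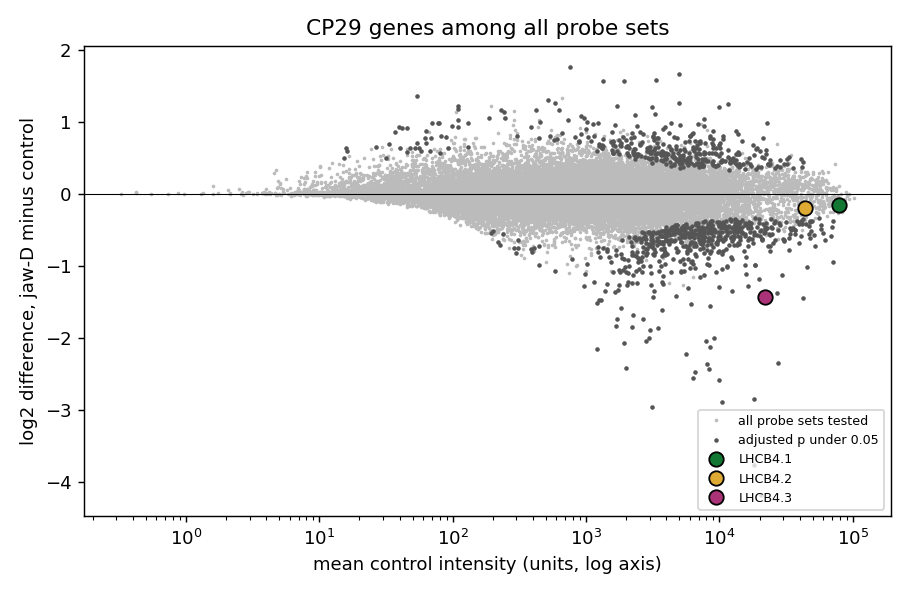
Log2 difference between jaw-D and control against the mean control intensity (log axis) for all probe sets tested, with those past an adjusted p of 0.05 in dark grey and the CP29 genes in colour. LHCB4.3 lies at -1.44, well outside the bulk at its brightness, and LHCB4.1 and LHCB4.2 lie close to 0 at the bright end.

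The question whether the isoforms changed unequally was addressed with their ratio within each array, which does not depend on a scaling factor shared by an array and compares changes, not levels. The log2 ratio of LHCB4.3 to LHCB4.1 was -1.71 and -1.97 in control and -3.14 and -3.11 in jaw-D. The ratio was lower on both jaw-D arrays than on either control array, with a difference of -1.29 ± 0.10 (SE), a 95% interval of -1.52 to -1.05 and a limma adjusted p of 6.53e-04. The log2 ratio of LHCB4.3 to LHCB4.2 was -0.88 and -1.08 in control and -2.22 and -2.24 in jaw-D. Here the difference was -1.25 ± 0.09 (SE), with an interval of -1.45 to -1.04 and an adjusted p of 0.00123. LHCB4.3 therefore fell to about 0.399 of its control ratio to LHCB4.1 and 0.411 of that to LHCB4.2, in normalised intensity.

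An unequal change of LHCB4.2 and LHCB4.1 was not detected. After quantile normalization their log2 ratio was -0.82 and -0.89 in control and -0.92 and -0.87 in jaw-D, and the groups overlapped. The difference was -0.04 ± 0.08 (SE), with an interval of -0.23 to 0.15 and a limma adjusted p of 0.783. With the variances of both genes added, as described in the next paragraph, the interval was wider, -0.27 to 0.19. This leaves room for an unequal change of up to that size. As deposited or centred on the array median, the difference was -0.11 (limma adjusted p 0.337). In deposited values both jaw-D ratios lay under both control ratios, so the overlap depends on the quantile normalization. These were the 3 possible pairs.

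In the fit of ratios every probe set is divided by the same gene and so carries the same error of that gene. For this reason the comparison was repeated with the moderated variances of both genes from the fit of single genes added together, an alternative chosen after seeing the data. The adjusted p was then 0.0288 for LHCB4.3 against LHCB4.1, 0.0252 for LHCB4.3 against LHCB4.2 and 0.817 for LHCB4.2 against LHCB4.1. An exact two-sided permutation test of a ratio with 2 against 2 arrays cannot go below 0.333, which both ratios of LHCB4.3 reached. Without control 1 the ratio of LHCB4.3 to LHCB4.1 had a difference of -1.15 and an adjusted p of 0.113, and without control 2 of -1.42 and 0.0915. With any 1 array left out, the ratio of LHCB4.3 to LHCB4.2 had differences of -1.34 to -1.15. The version with added variances was run on all 4 arrays only, so whether this ratio would then pass was not tested.

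**Figure D3:**
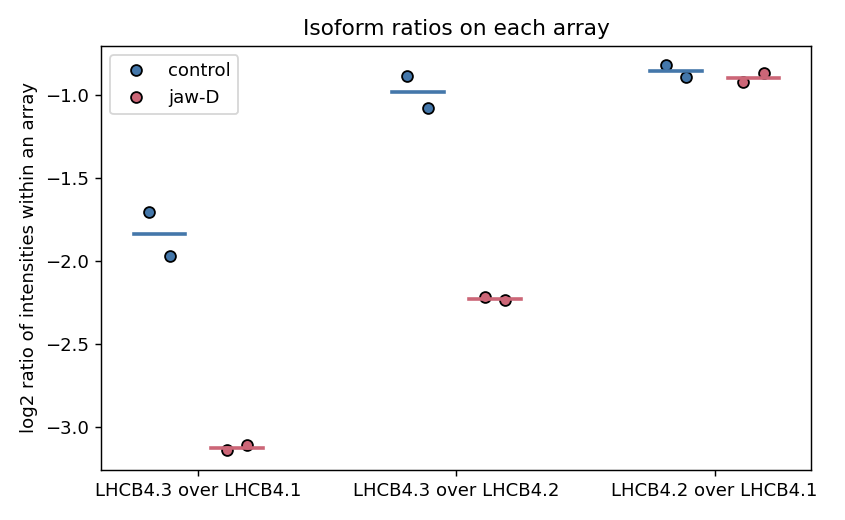
Log2 ratio of quantile-normalised intensities within an array for the 3 pairs of CP29 genes. Points are arrays and lines are group means; the ratios of LHCB4.3 to LHCB4.1 and to LHCB4.2 are lower on both jaw-D arrays than on both control arrays, and the points of LHCB4.2 over LHCB4.1 overlap.

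Of 22 genes of the light-harvesting antenna family in the list used here, only the 3 CP29 genes could be named on the array, so that 1 of 3 measured members fell, 0 rose and 2 did not pass. LHCB3, LHCB5, LHCB6 and the LHCA, LHCB1 and LHCB2 genes were not analysed here by name. A further 8 lists hold 63 genes that work beside the antenna: LHC-like proteins, nuclear subunits of both photosystems, antenna kinases and phosphatases, insertion factors, pigment synthesis, chlorophyll breakdown and GLK regulators. Of these, 10 could be named, none of them in the lists of kinases and phosphatases, insertion factors or regulators. Of the 10, 4 fell, 0 rose and 6 did not pass, against 2.54% called lower over all probe sets. All 10 differences were negative, as were 48.6% of those over all probe sets, and their median was -0.25, against 0.01 over all probe sets. The 10 genes were bright, with control means of 4969 to 59532 units, whereas the shares over all probe sets include dim ones. Shares at like brightness were not computed, and the lists were chosen with earlier results of these data known.

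The lowest of these 10 differences was -0.60, against -1.44 for LHCB4.3; LHCB4.3 was not tested against each of them. CHLI2, a subunit of the magnesium chelatase of chlorophyll synthesis, had values of 6948 and 6888 normalised units in control and 4151 and 4775 in jaw-D, a log2 difference of -0.60 (adjusted p 0.0302). NOL, a chlorophyll b reductase that starts chlorophyll b breakdown, had values of 5077 and 4861 in control and 3350 and 3342 in jaw-D (-0.53, adjusted p 0.0294). One of these genes thus serves chlorophyll synthesis and the other its breakdown. LIL3:1, a light-harvesting-like protein needed for chlorophyll and tocopherol synthesis, had values of 27175 and 25423 in control and 20496 and 19937 in jaw-D (-0.37, adjusted p 0.0445). PSAN, a lumenal subunit of photosystem I, had values of 50425 and 48821 in control and 38593 and 37896 in jaw-D (-0.37, adjusted p 0.0397). Both jaw-D arrays lay under both control arrays in 8 of the 10 genes, against 23.6% of all probe sets tested. The calls by limma did not hold with any 1 array left out. Without the variance trend 0 of the 10 passed, where 14 probe sets were called higher and 51 lower. In that fit 6 of the 10 had an unadjusted p under 0.05. Of all 22746 probe sets, 2129 were higher and 2135 lower at the same unadjusted threshold. With the replicate block 1 of the 10 passed, where 157 probe sets were called higher and 309 lower.

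The 6 others had log2 differences of -0.25 to -0.04. The photosystem II subunit genes PSBY (-0.25, adjusted p 0.131) and PSBW (-0.17, adjusted p 0.226) did not pass, nor did PSAE-1 of photosystem I (-0.14, adjusted p 0.326). In the same range were CHLM, a methyltransferase of chlorophyll synthesis (-0.25, adjusted p 0.11), PORB, a protochlorophyllide oxidoreductase (-0.05, adjusted p 0.742), and LIL3:2, the paralogue of LIL3:1 (-0.04, adjusted p 0.803). LHCB4.1 and LHCB4.2 had differences between the lowest and the highest of these 6. The 4 genes that fell also passed as deposited and centred on the array median.

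**Figure D4:**
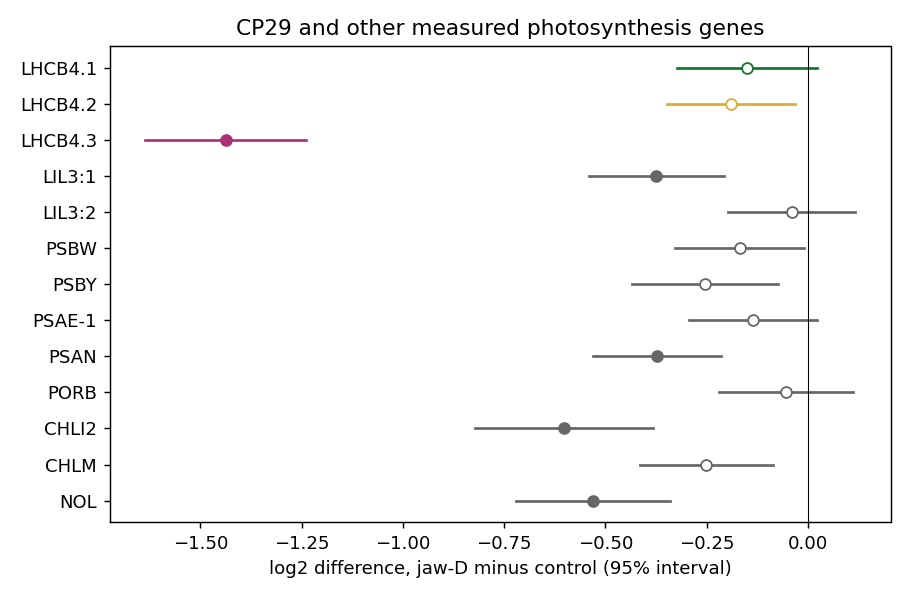
Log2 difference between jaw-D and control with its 95% interval, not adjusted for the number of probe sets, for the CP29 genes and the 10 other measured genes of the lists; filled points had an adjusted p under 0.05. The interval of LHCB4.3, -1.64 to -1.24, lies apart from those of all the others shown.

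Among 1550 other probe sets with a single gene and a symbol, those with the profile most like each CP29 gene were found by the root mean square distance of log2 values over the 4 arrays, each profile taken around its own mean. With 4 arrays this likeness is a description. For LHCB4.3 the closest were ATSPS4F, a sucrose-phosphate synthase gene (distance 0.104 on the log2 scale, difference -1.44), MSRB6, a methionine sulfoxide reductase gene (0.111, difference -1.42), and JAL23, a jacalin-related lectin gene (0.147, difference -1.24). UGT76E11, a glycosyltransferase gene (0.207), and CCS, the copper chaperone of superoxide dismutase (0.231), followed. Photosystem genes were not among these 5. The distance includes the size of the difference, and the lowest nuclear photosystem gene named here, PSAN, was at -0.37. The absence of such genes therefore adds nothing to the differences given above.

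For LHCB4.1 the closest were TERT, the telomerase reverse transcriptase gene (0.0181), PSAE-1 (0.0186), GSTU25, a glutathione transferase gene (0.022), CYB-1, a cytochrome b561 gene (0.0233), and ZYP1b, of the synaptonemal complex (0.0236). TERT, GSTU25 and ZYP1b had group means under the 353 units of the background probe sets. PSAE-1 was bright, with 57438 ± 1247 units in control and 52259 ± 240 in jaw-D (SD, n = 2 each). For LHCB4.2 the closest were GT2, a trihelix transcription factor gene (0.00897), SFP2, a sugar transporter-like gene (0.0259), GRXC2, a glutaredoxin gene (0.0273), CYB-1 (0.0282) and SAT32 (0.0286). LHCB4.1 and LHCB4.2 were 0.0372 apart, whereas LHCB4.3 was 0.651 from LHCB4.1 and 0.628 from LHCB4.2.

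**Figure D5:**
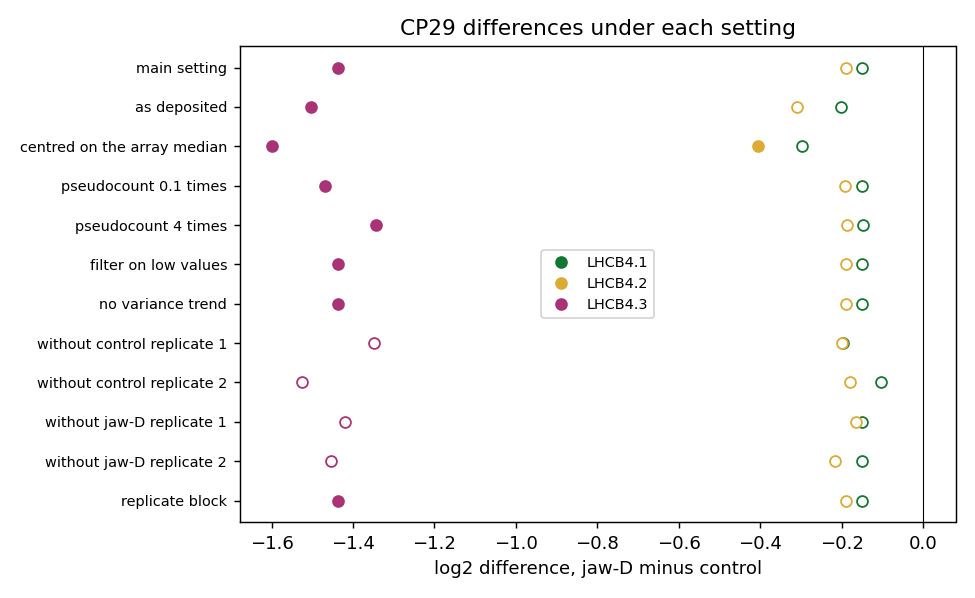
Log2 difference between jaw-D and control for the 3 CP29 genes under the main setting and 11 alternatives; filled points had an adjusted p under 0.05. LHCB4.3 stays between -1.60 and -1.34 and LHCB4.1 and LHCB4.2 between -0.40 and -0.10, and the points of LHCB4.3 are open with any 1 array left out.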

How the data were processed

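Total RNA from aerial parts was measured on 4 arrays, 2 of control and 2 of jaw-D plants. The authors deposited positive microarray intensity values on a linear scale, 1 for each of 22810 probe sets and array. The values share a trimmed mean; for the software, nothing is given in the sources used here. All 64 array controls were left out. The other 22746 probe sets were quantile normalised and taken as log2(value + 302.3), the pseudocount being the 25th percentile of all deposited values. They were tested with limma 3.58.1 in R 4.3.3 (lmFit, eBayes with a variance trend, 2 residual degrees of freedom, two-sided), with Benjamini-Hochberg adjustment over all probe sets. Ratios of isoforms were tested with the same fit on every probe set's log2 ratio to the second gene. Both steps were run on simulated data with planted changes and the same noise level for every probe set. The fits to the real arrays let the spread change with intensity, so the simulation does not show how the ratio fit behaves there.

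Names came from the platform annotation through the TAIR10.1 gene table: 13513 probe sets had 1 gene, 503 several and 8730 none here. The genes named were the CP29 genes, at most 4 measured genes per list, by smallest p (no list had more, so all 10 outside CP29 are given) and the 5 symbols nearest each CP29 gene in profile. Members and lists were chosen with earlier results of these data known. The number of arrays limits the precision. Alternatives covered scaling, pseudocount, a filter on dim probe sets, the variance trend, each array left out and the replicate number as a block.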

Additional observations from a re-analysis of the deposited data

How the results depend on the processing

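The differences of all 3 CP29 genes and all 3 ratios were negative under each of the 11 alternatives and, for the ratios, with the added variances. LHCB4.1 and LHCB4.2 over LHCB4.1 kept their side of the threshold throughout. LHCB4.3 over LHCB4.2 passed in every setting with all 4 arrays. Its differences were -1.34 to -1.15 with 1 array left out, where the added variances were not used. LHCB4.2 passed with arrays centred on the median (-0.40). LHCB4.3 did not pass with any 1 array left out (-1.52 to -1.35), and its ratio to LHCB4.1 did not pass without control 1 or control 2 (-1.42 to -1.15 over the 4 arrays); these fits have 1 residual degree of freedom and assume that a lone array varies like the other group. Probe sets higher in jaw-D numbered 374 in the main setting, 248 centred on the median, 1015 with dim probe sets filtered out, 14 without the variance trend, 157 with the replicate block and 0 to 0 with 1 array left out. Lower ones numbered 578, 978, 1168, 51, 309 and 0 to 14 in the same order. Of the 10 other photosynthesis genes, 4 fell in the main setting and 6 passed centred on the median or with dim probe sets filtered out. Lower calls over all probe sets also rose there, from 578 to 978 and 1168. The number of probe sets left after the filter is not given here, and whether the 10 genes rose beyond the background was not tested. Higher calls were 39.3% of all calls, and 20.2% centred on the median. Of the 3 measured antenna genes 1 passed, 2 did so centred on the median, and 0 to 0 with 1 array left out. In limma with 1 array left out, 1641 to 2216 probe sets were higher and 1698 to 2166 lower at an unadjusted p under 0.05.

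Same-numbered arrays of the groups did not deviate together (correlation of deviations -0.021), and the labels do not say that the number marks a shared batch. The replicate block changed no call for the CP29 genes or their ratios (LHCB4.3 -1.44, adjusted p 0.00931).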

Other observations

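The genes next to the CP29 genes, 3 protein-coding loci on each side in the order of the TAIR10.1 gene table, were looked at after the CP29 values had been seen. For LHCB4.3 1 of 6 was measured, AT2G40110, with 1660 ± 29.3 units in control against 1947 ± 287 for jaw-D (SD, n = 2 each; log2 difference 0.19, limma adjusted p 0.487). For LHCB4.2 3 of 6 were measured, with differences of -0.52 to 0.24, the lowest being AT3G08920 (11949 ± 1343 and 8245 ± 617 units, adjusted p 0.0542). For LHCB4.1 1 of 6 was measured, TAAC, a thylakoid ATP/ADP carrier gene (2752 ± 38.2 and 2115 ± 14.2 units, difference -0.34, adjusted p 0.109). None of these 5 neighbours passed, where 2.54% of all probe sets tested were called lower and 1.64% higher. With so few called, 5 genes without a call say little about these regions.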
